A study of Homo sapiens with 94 samples.

Results

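The enzymes that attach palmitate to proteins and remove it again were examined as a set. It held the 33 genes of the expression table whose symbol was ZDHHC followed by a number (24 palmitoyltransferases) or was one of 9 named depalmitoylating enzymes, out of 20239 genes in all. Membership was decided by name and used no measured value, but the set was chosen with earlier results of these data known. The 33 genes lie on 17 chromosomes, and all 33 are annotated as protein coding in GENCODE 29.

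Protein S-palmitoylation is the attachment of a fatty acid, usually palmitate, to a cysteine through a thioester bond that can be cut again, so that a protein can be moved on and off a membrane. Most of it is carried out by membrane enzymes with a DHHC motif in the active site, encoded by the ZDHHC genes. The fatty acid is removed by serine hydrolases of the LYPLA (acyl-protein thioesterase), ABHD17 and ABHD10 families and, in the lysosome, by PPT1. PPT2, also of the lysosome, was counted with the removing enzymes by its name. TEAD transcription factors, the DNA-binding partners of YAP1, are palmitoylated too. They can load the fatty acid themselves in a lipid pocket, and LYPLA2 has been described as an enzyme that removes it. K-975 is a small molecule that binds covalently in this pocket and blocks TEAD palmitoylation, and the question asked here was whether the enzymes of the palmitoylation cycle were expressed in the treated tumors and whether their transcripts responded.

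RNA-seq had been performed on 94 subcutaneous xenografts of NCI-H226, an established human malignant pleural mesothelioma line with a deletion of NF2, the gene of a Hippo pathway regulator that restrains YAP1. The line is one model of the disease, and no second line was measured. The hosts were female CB17 Prkdc scid mice aged 6 to 8 weeks at the start, which lack T and B cells but keep other host cells. Tumors were left untreated, or the mice received vehicle (ethanol, Solutol and glucose) or K-975 at 30, 100 or 200 mg/kg as a single oral dose, and tumors were collected in 3 studies, at 1 h, at 3-6 h and at 24 h. The dosing volume was 20 mL/kg for vehicle and for the highest dose and 10 mL/kg for the lower doses, so that dose and volume cannot be told apart when 30 or 100 mg/kg is compared with vehicle. Groups held 5 tumors at 1 h and 24 h, except vehicle at 24 h with 4. The 3-6 h study had 5 untreated tumors and 10 tumors for vehicle and for every dose, labelled as 2 cage groups of 5. Which cage groups were taken early and which late is not in the labels, nor whether the mice of a cage group shared a cage. In the other studies a treatment was 1 cage group, and any effect of the cage group cannot be separated from that of the treatment. Each tumor came from its own mouse.

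The values were FPKM (fragments scaled to transcript length and library total), which hold no counts, so the depth of a library is unknown. In 91 libraries 11344 to 11665 genes reached an FPKM of 1. The other 3 libraries, labelled 200 mg/kg at 1 h, 100 mg/kg at 24 h and 30 mg/kg at 24 h, had 8531, 7196 and 702 such genes and listed 17, 17 and 33 of the 33 enzymes at 0. A 0 in such a library may be a failed estimate, since ZDHHC6 stood at 119 FPKM in the 100 mg/kg library, against a highest value of 9.19 in the other 91. Results are given for the 91 libraries. Where all 94 in the fit changed a call, this is given with the result. The 6 mesothelial markers examined (MSLN, CALB2, WT1, KRT5, PDPN and KRT18) were at 18.8 FPKM or more in each of the 91. Of 10 markers of other cell types, the erythrocyte gene HBB was at 0 in all 91. Of the 3 endothelial markers, PECAM1 was at 0 in 79 libraries, and VWF and CDH5 were above 0 in all 91, with highest values of 2.62 and 3.53 FPKM. Of the 3 leukocyte markers, the T cell gene CD3E was at 0 in 90 and PTPRC in 24, and CD68, a gene of macrophages, ranged from 40.5 to 265 FPKM. The fibroblast markers PDGFRA, DCN and LUM were at 0 in 24, 31 and 24 libraries and reached at most 5.87, 11.8 and 6.62 FPKM. Cells of these other types in a xenograft come from the mouse, while the values are of human genes. How mouse reads were treated is not given. Low values here thus do not measure the content of host cells, and the species behind the CD68 reads is not known.

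Nearly all of these enzymes were transcribed in the tumors. The median FPKM over the 91 tumors was at least 1 for 28 of the 33 genes (84.8%), beside 56.4% of all genes in the table, and at least 10 for 17 of them. In every one of the 91 tumors 27 of the 33 were above 0. The count of 28 was 26 with a minimum FPKM of 2 and 29 with a minimum of 0.5. Libraries were enriched with capture probes, so a level also depends on how well a gene's probes capture it, and levels are compared between genes as FPKM with this limit.

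ZDHHC7, a Golgi enzyme with many known substrates, stood highest, with a median of 88.2 FPKM and a range of 57.5 to 114. It was followed by ZDHHC17, which palmitoylates huntingtin and other neuronal proteins, at 55.5 FPKM (28.8 to 76.7), and by LYPLA1, a cytosolic thioesterase, at 48.3 FPKM (27.5 to 74.3). ZDHHC20, known for palmitoylating the EGF receptor, had a median of 44.2 FPKM (31.1 to 70.7) and ZDHHC2, known for palmitoylating the scaffold protein PSD-95, one of 40.1 FPKM (17.4 to 65.2). The ranges of neighbors in this order overlapped, also between ZDHHC7 and ZDHHC17. ZDHHC5, an enzyme of the plasma membrane, varied least of the 29 enzymes that entered the test, at 35.6 FPKM with a coefficient of variation of 7.67%.

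A second tier lay between 10 and 40 FPKM. It held ZDHHC12 (median 35.6 FPKM), ZDHHC4 (30.8), ZDHHC14 (26.7), ZDHHC16 (23.0), ZDHHC9 (16.2), ZDHHC13 (15.9), ZDHHC18 (15.0) and ZDHHC8 (10.9) and, among the removing enzymes, lysosomal PPT1 (19.2), mitochondrial ABHD10 (16.3) and LYPLA2 (12.4). ZDHHC9 acts together with GOLGA7 on RAS proteins, and PPT1 is the enzyme lost in infantile neuronal ceroid lipofuscinosis.

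The ABHD17 hydrolases, which remove palmitate from NRAS and PSD-95, were lower, with medians of 8.95 FPKM for ABHD17C, 4.37 for ABHD17B and 3.40 for ABHD17A. ZDHHC1 (8.30), ZDHHC3 (7.29), PPT2 (7.26), LYPLAL1 (5.68), ZDHHC6 (4.52) and ZDHHC24 (4.19) lay in the same range, and ZDHHC21 (1.30) and ZDHHC23 (1.13) just above an FPKM of 1. PPT2 varied widely, from 0.672 to 30.5 FPKM. Its gene lies beside EGFL8, and transcripts that read through both are annotated, so reads may be shared.

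Of the 5 genes below an FPKM of 1, ZDHHC11 had a median of 0.592 FPKM and a range of 0 to 7.27. ZDHHC15, ZDHHC19, ZDHHC22 and ZDHHC11B had medians of 0, and their highest values were 0.258, 1.09, 0.105 and 0.299 FPKM. ZDHHC11 and ZDHHC11B are near-identical neighbors on chromosome 5, and how reads were divided between them is uncertain. The minimum of 1 FPKM separated ZDHHC23, at 1.13, from ZDHHC11, at 0.592.

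Summed over the class, the palmitoyltransferases reached 399 to 528 FPKM (median 472), of which ZDHHC7 made up a median of 18.7%. The removing enzymes summed to 106 to 175 FPKM (median 130), with a median of 38.0% from LYPLA1. At 24 h the palmitoyltransferases summed to a median of 493 FPKM (443 to 517) in vehicle tumors and 472 FPKM (432 to 491) at 200 mg/kg, and the removing enzymes to 130 FPKM (126 to 149) and 129 FPKM (116 to 141). The groups overlapped for both sums.

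The sensitivity of the comparisons depends on the spread within groups. The residual standard deviation on the log2(FPKM + 1) scale had a median of 0.284 over the 29 enzymes tested and 0.290 over the 13036 genes tested. For the 17 enzymes with a mean above 10 FPKM it was 0.243, beside 0.230 for 5741 genes in the same range of mean.

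The response to K-975 was compared with vehicle per dose and study, with limma fitted across 13036 genes and p-values adjusted by Benjamini-Hochberg over all of them. Of the 33 enzymes, 29 passed the filter of an FPKM of at least 1 in 4 libraries, and ZDHHC15, ZDHHC19, ZDHHC22 and ZDHHC11B did not. The 3 doses of a study share its vehicle tumors, so their results are not independent. In bulk tumor RNA, fewer cells of a type and less RNA per cell cannot be told apart. Differences are given on the scale of log2(FPKM + 1), where the change of a weakly expressed gene is understated.

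At 1 h, limma called 0 of the 29 enzymes at 30, 100 or 200 mg/kg, beside 0.00%, 0.00767% and 0.00% of all genes tested. An unadjusted p below 0.05 was found for 0, 1 and 1 of the 29, beside 4.38%, 4.97% and 3.34% of all genes. These were ZDHHC16 at 100 mg/kg (log2 fold change 0.29, adjusted p = 0.953) and ZDHHC7 at 200 mg/kg (-0.29, adjusted p = 1). For 27, 27 and 26 of the 29 enzymes the 95% interval lay within a 2-fold change of FPKM + 1 in either direction.

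At 3-6 h, limma again called 0 of the 29 at any dose, beside 0.0153%, 0.430% and 0.0690% of all genes at 30, 100 and 200 mg/kg. The count at an unadjusted p below 0.05 was 4, 6 and 3, beside 7.03%, 10.3% and 7.23% of all genes. LYPLAL1 at 100 mg/kg had the highest log2 fold change of the 29 (0.65, adjusted p = 0.278) and ZDHHC18 at 30 mg/kg the lowest (-0.37, adjusted p = 0.369). The authors list ZDHHC18 among their positive effectors of YAP1/TAZ-TEAD transcription. Limma called it at no dose in any of the studies. With 10 tumors in a group the intervals were narrower. They lay within a 1.5-fold change of FPKM + 1 for 25, 24 and 25 of the 29. Cage groups of a dose were averaged, so a change in a single cage group could be diluted. ZDHHC7 at 200 mg/kg had means of 91.5 FPKM in cage group 4 and 70.8 FPKM in cage group 5. The vehicle cage groups 2 and 3 had means of 86.6 and 83.1 FPKM. A difference between cage groups was not tested.

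At 24 h, limma called 0 of the 29 at 30 and at 100 mg/kg, beside 0.0384% and 1.12% of all genes, and 2 and 3 of them had an unadjusted p below 0.05, beside 10.0% and 14.1%. At 200 mg/kg it called 2 of the 29 (6.90%), ZDHHC2 and ABHD17C, both lower. The share over all genes tested was 7.41%, and 3.61% for lower genes. The share of enzymes called was thus near the background. An unadjusted p below 0.05 was found for 4 of the 29, the others being ZDHHC23 and ZDHHC21 (0.29, adjusted p = 0.220), beside 21.9% of all genes. The median log2 fold change was 0.03 over the 29 enzymes and 0.04 over all genes.

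**Figure D1:**
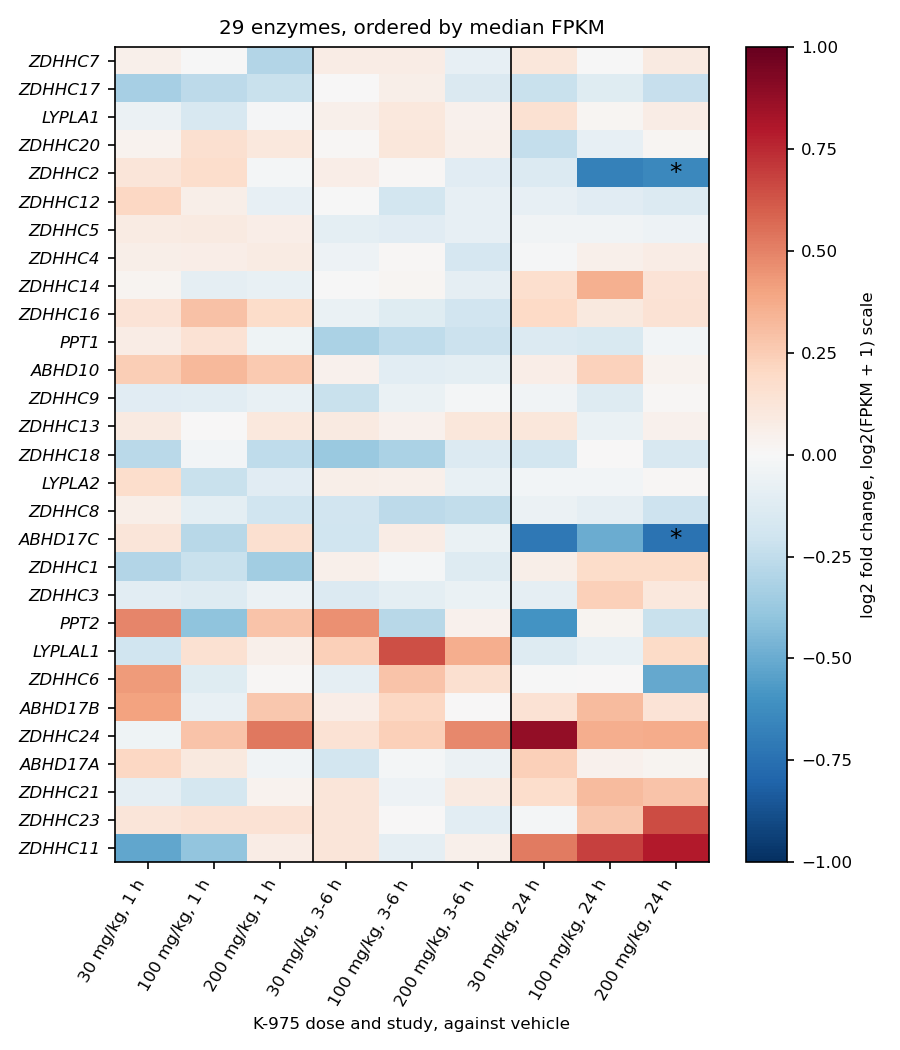
Log2 fold change against vehicle of 29 enzymes (rows, ordered by median FPKM) for 3 doses in 3 studies (columns), on the log2(FPKM + 1) scale. Blue is lower and red is higher than vehicle, and stars mark an adjusted p under 0.05, which was reached by ZDHHC2 and ABHD17C at 200 mg/kg and 24 h.

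ZDHHC2 (GRCh38, chr8:17156029-17224799) stood at 50.0, 38.7, 55.1 and 43.1 FPKM in the 4 vehicle tumors at 24 h. In the 5 tumors that received 200 mg/kg it stood at 29.4, 34.2, 26.5, 25.9 and 30.7 FPKM. The groups did not overlap, and the means were 46.7 ± 7.27 (SD, n = 4) and 29.3 ± 3.37 FPKM (SD, n = 5). By limma, ZDHHC2 fell by 0.65 on the log2 scale (SE 0.201, adjusted p = 0.0338), a fold of 0.638 with a 95% interval of 0.484 to 0.842.

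At 100 mg/kg ZDHHC2 was at 17.4, 43.8, 27.9 and 31.1 FPKM, a log2 fold change of -0.68 (adjusted p = 0.0881). At 30 mg/kg it was at 30.1, 44.6, 58.0 and 40.0 FPKM. Both groups overlapped with vehicle. The linear trend over vehicle and the 3 doses at 24 h was -0.34 on the log2 scale per 100 mg/kg (limma, adjusted p = 0.0141), and ZDHHC2 was the single enzyme of 29 past the threshold for the trend at 24 h, beside 5.61% of all genes and 3.00% for falling ones. The trend stayed past the threshold without any one of the 17 tumors, with adjusted p from 0.00603 to 0.0466. It was lost with all 94 libraries (-0.17, adjusted p = 0.697) and with only the groups compared (-0.34, adjusted p = 0.0646).

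The untreated tumors of the 24 h study had ZDHHC2 at 41.5, 47.6, 36.8, 49.3 and 29.6 FPKM, so 1 untreated tumor lay within the range of the 200 mg/kg group. Against untreated tumors the log2 fold change at 200 mg/kg was -0.45 (limma, adjusted p = 0.128). At 1 h and 3-6 h the group means of ZDHHC2 were between 37.2 and 46.5 FPKM. The 200 mg/kg effect on ZDHHC2 differed between 24 h and 1 h by -0.63 (adjusted p = 0.320) and between 24 h and 3-6 h by -0.54 (adjusted p = 0.240), so a difference between the studies was not shown.

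ABHD17C (chr15:80695303-80755621 in the table, with an earlier start in GENCODE 29) was at 15.2, 15.7, 15.6 and 15.0 FPKM in the vehicle tumors at 24 h (mean 15.4 ± 0.318, SD, n = 4). At 200 mg/kg it was at 6.62, 12.6, 11.6, 5.42 and 9.83 FPKM (mean 9.23 ± 3.13, SD, n = 5), all below vehicle. By limma, ABHD17C fell by 0.74 on the log2 scale (SE 0.240, adjusted p = 0.0445), a fold of 0.600 with a 95% interval of 0.431 to 0.836.

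The other doses of the 24 h study also gave ABHD17C values below every vehicle tumor, without passing the test. They were 14.8, 7.30, 9.73 and 11.9 FPKM at 100 mg/kg (log2 fold change -0.49, adjusted p = 0.365) and 10.2, 8.57, 9.94 and 7.44 FPKM at 30 mg/kg (-0.71, adjusted p = 0.311). No order by dose was seen. The trend was -0.24 per 100 mg/kg (adjusted p = 0.184).

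Untreated tumors at 24 h had ABHD17C at 23.4, 10.0, 13.5, 13.3 and 12.9 FPKM, and 2 of the 5 tumors at 200 mg/kg lay above the lowest of them. Against these the log2 fold change at 200 mg/kg was -0.62 (limma, adjusted p = 0.0742). The 200 mg/kg effect on ABHD17C differed between 24 h and 1 h by -0.90 (adjusted p = 0.211) and between 24 h and 3-6 h by -0.67 (adjusted p = 0.216).

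**Figure D2:**
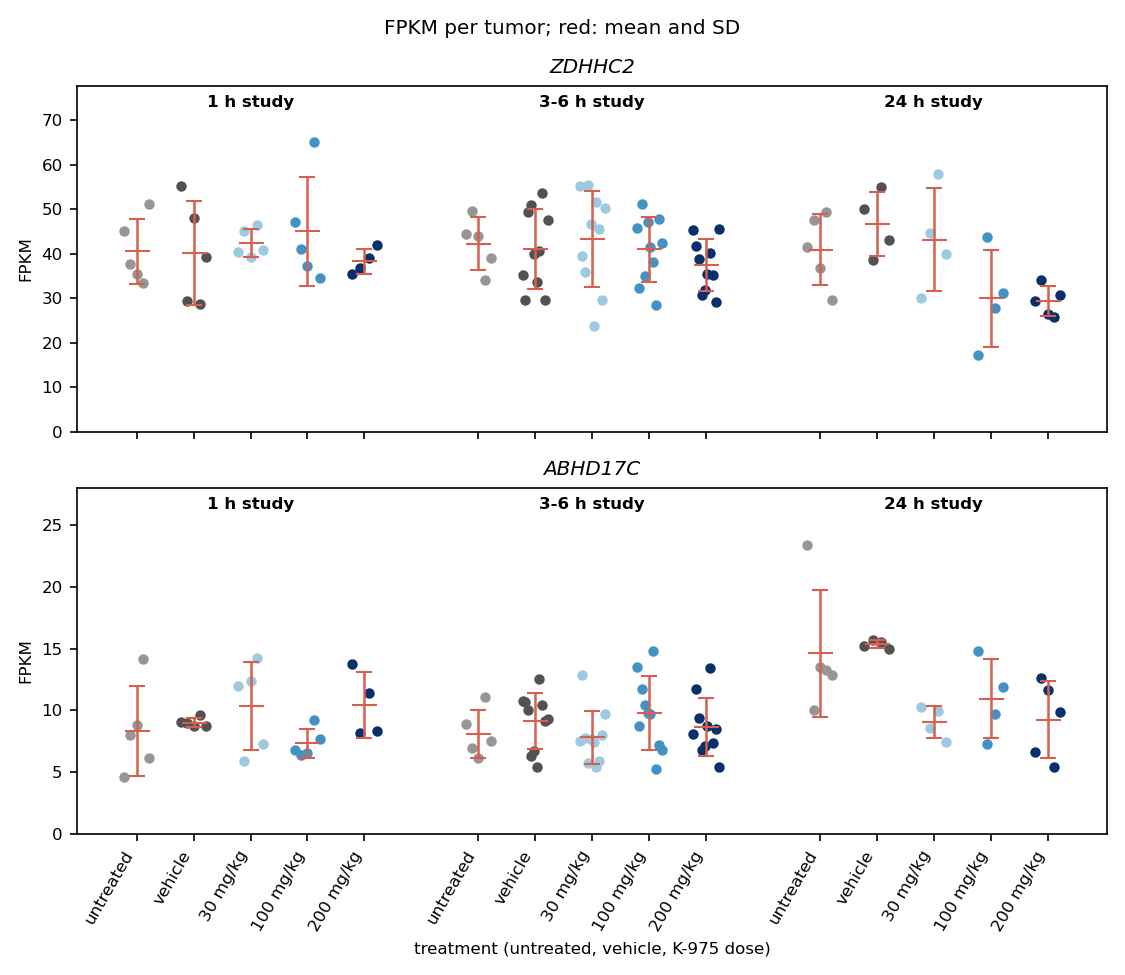
FPKM of ZDHHC2 and ABHD17C per tumor (points) in each group of the 3 studies, with mean and SD in red; the 3 libraries of few genes are left out. ZDHHC2 is lowest at 100 and 200 mg/kg in the 24 h study, and ABHD17C is higher in the control tumors of the 24 h study (median 15.0 FPKM) than in those of the other studies (8.91 FPKM), with overlapping ranges.

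TEAD factors bind the core sequence GGAATG, or CATTCC on the other strand. Of the 33 enzymes, 25 had 31 promoter windows in the RefSeq table (GRCh38.p14), and the 250 bases before each start were searched for the core on both strands. It was found in windows of 2 enzymes, PPT2 and ZDHHC1, which is 6.45% of their windows, beside 11.9% of the 35116 windows of all genes. The window of ABHD17C held none, and 86.4% of its bases were G or C, more than in 99.8% of all windows, whose median was 58.0%. The table held no window for ABHD10, LYPLA1, ZDHHC2, ZDHHC4, ZDHHC13, ZDHHC18, ZDHHC22 and ZDHHC24. The stretches shown are that of ABHD17C, one of the 2 enzymes lower at 24 h, and that of an enzyme with the core, each running 5′ to 3′ from 250 to 51 bases before the start, with the core in capitals where present. ABHD17C is on the plus strand at chr15:80695060-80695259 and ZDHHC1 on the minus strand at chr16:67416528-67416727. The starts are those of RefSeq. In the expression table ZDHHC1 spans chr16:67394419-67416833, so its stretch and core lie inside the gene as measured, not before it. The same holds for the PPT2 window with the core (chr6:32153891-32154140, gene at 32153523-32163680).
ABHD17C: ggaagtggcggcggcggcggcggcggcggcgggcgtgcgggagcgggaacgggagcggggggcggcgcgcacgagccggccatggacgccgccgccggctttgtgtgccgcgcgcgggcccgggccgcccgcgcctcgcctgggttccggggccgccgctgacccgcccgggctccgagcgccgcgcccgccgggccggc
ZDHHC1: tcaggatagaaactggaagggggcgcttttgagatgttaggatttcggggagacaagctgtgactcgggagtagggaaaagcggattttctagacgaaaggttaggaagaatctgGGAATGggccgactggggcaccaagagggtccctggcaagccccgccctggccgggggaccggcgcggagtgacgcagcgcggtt
ZDHHC1 itself had a log2 fold change of 0.18 at 200 mg/kg and 24 h (adjusted p = 0.621). PPT2 had one of -0.22 (adjusted p = 0.853). A match is a description of the letters, and none says only that these letters are not in this window.

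The control level of ABHD17C differed between studies. In the 9 untreated and vehicle tumors of the 24 h study it ranged from 10.0 to 23.4 FPKM (median 15.0). In the 25 control tumors of the 1 h and 3-6 h studies it ranged from 4.58 to 14.1 FPKM (median 8.91), and in the 13 treated tumors of the 24 h study from 5.42 to 14.8 FPKM (median 9.83). This comparison was added after the vehicle values had been seen. By limma the controls of the 24 h study were higher by 0.74 on the log2 scale than those of the 1 h study (adjusted p = 0.0337, beside 0.245% of all genes called and 0.115% for higher ones) and by 0.74 than those of the 3-6 h study (adjusted p = 0.000459, beside 12.2% of all genes, 5.45% higher and 6.77% lower). The first of these calls was lost when 1 of 12 of the 19 tumors was left out (adjusted p 0.0135 to 0.0956), which were replicates 1, 3 and 5 of untreated and of vehicle at 1 h, replicates 1, 4 and 5 of untreated at 24 h and replicates 1, 2 and 3 of vehicle at 24 h. The second was kept without any one of 24 tumors (0.000193 to 0.00297). Both were lost with all 94 libraries (adjusted p = 1 and 0.453), and the first also with untreated tumors alone, vehicle tumors alone and only the groups compared. Study, time and cage group coincide, so their parts cannot be told apart.

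PPT1 and ABHD10 were lower in the controls of the 24 h study than in those of the 3-6 h study, by -0.31 (adjusted p = 0.0400) and -0.42 (adjusted p = 0.0125) on the log2 scale. With ABHD17C, limma called 3 of the 29 enzymes (10.3%) in this comparison, 2 of them lower. The share over all genes was 12.2%, and 6.77% for lower ones, so the share of enzymes called was near the background. PPT1 had means of 17.32 ± 3.69 (SD, n = 9) and 21.96 ± 2.85 FPKM (SD, n = 15), and ABHD10 means of 14.3 ± 1.99 and 19.3 ± 4.16 FPKM. The call for PPT1 was lost without untreated replicate 2 at 24 h (log2 difference -0.22, adjusted p = 0.147) and without any one of 8 others, namely replicates 1, 3 and 4 of vehicle at 24 h and, at 3-6 h, untreated replicates 1, 3 and 5, vehicle replicate 4 of cage group 2 and replicate 1 of cage group 3. It was also lost under 6 of 8 other alternatives, all 94 libraries among them. The call for ABHD10 was kept without any one tumor, and lost with untreated tumors alone (adjusted p = 0.0598), vehicle tumors alone (adjusted p = 0.362) and all 94 libraries. Between the controls of the 3-6 h and the 1 h studies limma called 0 of the 29, beside 2.16% of all genes, with 4 at an unadjusted p below 0.05, beside 14.9%. The count was 1 with array weights over 94 libraries and 1 without untreated replicate 4 at 3-6 h, and the enzyme was ABHD10 in both.

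Both calls at 200 mg/kg and 24 h were close to the threshold. The ZDHHC2 call was lost without any one of 6 of the 9 tumors (vehicle replicates 1 and 3, and 200 mg/kg replicates 1, 3, 4 and 5; adjusted p 0.0195 to 0.130), and the ABHD17C call without any one of 7 of the 9 (all but 200 mg/kg replicates 2 and 3; 0.0165 to 0.155). Both log2 fold changes were below 0 in each of these fits, which had to be so because the groups did not overlap. Both calls were also lost with all 94 libraries (adjusted p = 1). In the same contrast the mesothelial markers MSLN (log2 fold change 0.40, adjusted p = 0.0414) and CALB2 (0.39, adjusted p = 0.0198) were higher. Of the other 4 markers of that list, KRT5 had a log2 fold change of 0.51 (adjusted p = 0.157), WT1 one of -0.10, PDPN -0.07 and KRT18 -0.04, and did not pass. The MSLN and CALB2 calls were themselves lost with all 94 libraries, with only the groups compared (adjusted p = 0.0969 and 0.0724), for MSLN also without a filter on low values (0.0540), and without any one of 7 and 4 of the 9 tumors (MSLN without any one but 200 mg/kg replicate 2 and vehicle replicate 4; CALB2 without vehicle replicates 1 and 3 and 200 mg/kg replicates 1 and 5). The summed FPKM of the 6 mesothelial markers was 2361 to 3128 at 200 mg/kg and 2137 to 2263 in vehicle tumors. The sums of the other marker lists overlapped between these groups (endothelial 0.995 to 2.36 and 1.37 to 2.23 FPKM, fibroblast 0.183 to 2.44 and 0.414 to 4.87, leukocyte 124 to 203 and 142 to 222). The leukocyte sum rested mainly on CD68, with a median of 139 FPKM over the 91 libraries, beside 0.168 for PTPRC and 0 for CD3E. Host cells are mouse cells and these are human genes, so the sums of these other lists do not measure host cells. The part of cell types in the result was not tested.

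**Figure D3:**
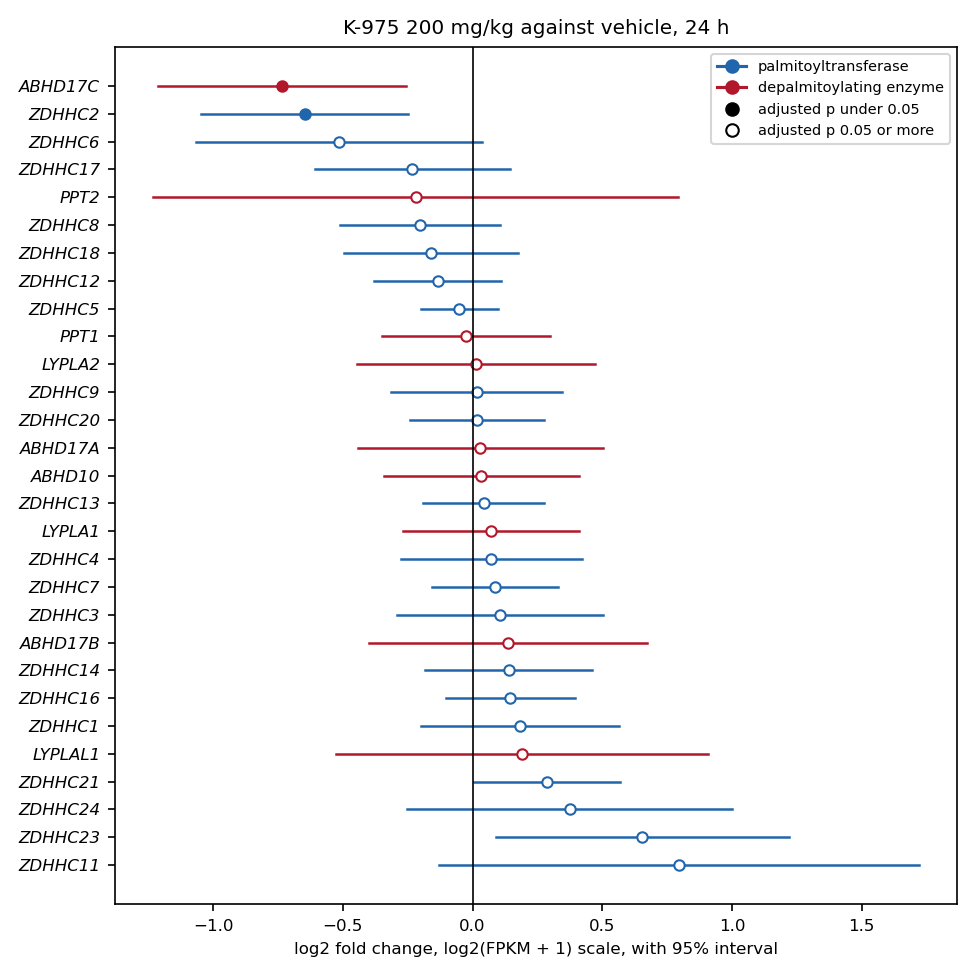
Log2 fold change of 29 enzymes at 200 mg/kg against vehicle at 24 h, with 95% intervals, on the log2(FPKM + 1) scale. Filled points have an adjusted p under 0.05; these are ABHD17C (-0.74) and ZDHHC2 (-0.65), and the intervals of the other enzymes reach an adjusted p of 0.149 at the lowest.

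The remaining enzymes did not pass the test at 200 mg/kg and 24 h. On the scale of FPKM + 1, the 95% interval excluded a change of more than 1.5-fold for 19 of the 29, and of more than 2-fold for 23. For a weakly expressed enzyme this does not exclude a larger change of FPKM. ZDHHC7 had 96.3, 68.0, 85.7 and 93.7 FPKM in vehicle tumors and 86.6, 108, 99.7, 76.5 and 85.3 FPKM at 200 mg/kg, a fold of 1.06 (0.897 to 1.26). ZDHHC5 had a fold of 0.965 (0.871 to 1.07).

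The thioesterases that act on cytosolic proteins showed no detected difference. LYPLA1 was at 47.9, 45.8, 47.3 and 48.2 FPKM in vehicle tumors and at 56.8, 49.5, 58.5, 43.3 and 42.6 FPKM at 200 mg/kg (fold 1.05, 95% interval 0.830 to 1.33, limma adjusted p = 0.861). LYPLA2 was at 13.6, 11.6, 17.5 and 8.58 FPKM and at 12.2, 13.5, 9.51, 11.4 and 17.2 FPKM (fold 1.01, 0.734 to 1.39, adjusted p = 0.987). In both the groups overlapped.

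The other members of the ABHD17 family did not share the lower values of ABHD17C at this dose, although a difference between the family members was not tested. ABHD17A was at 3.20, 3.42, 4.09 and 2.51 FPKM in vehicle tumors and at 2.89, 3.85, 4.37, 4.03 and 2.09 FPKM at 200 mg/kg (fold 1.02, 0.736 to 1.42, adjusted p = 0.965). ABHD17B was at 3.68, 5.03, 3.07 and 3.45 FPKM and at 3.34, 3.22, 5.41, 6.39 and 3.47 FPKM (fold 1.10, 0.759 to 1.59, adjusted p = 0.820). Lysosomal PPT1 was at 18.1, 21.8, 19.1 and 20.3 FPKM and at 21.3, 20.5, 21.8, 14.6 and 19.7 FPKM (fold 0.982, 0.785 to 1.23, adjusted p = 0.953).

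Apart from ZDHHC2, the palmitoyltransferases with the most extreme log2 fold changes in either direction were low in level and wide in spread. ZDHHC6, an enzyme of the endoplasmic reticulum that works with SELENOK, was at 5.64, 3.91, 4.57 and 7.27 FPKM in vehicle tumors and at 2.49, 4.68, 4.53, 2.76 and 2.81 FPKM at 200 mg/kg (log2 fold change -0.51, adjusted p = 0.268). ZDHHC24 was at 2.62, 2.75, 4.63 and 2.59 FPKM and at 5.82, 1.38, 3.76, 4.42 and 8.76 FPKM (0.37, adjusted p = 0.527). ZDHHC23 was at 0.720, 0.738, 0.826 and 0.412 FPKM and at 1.11, 2.33, 1.59, 3.17 and 0.637 FPKM (0.65, adjusted p = 0.149), with 1 treated tumor inside the vehicle range.

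ZDHHC11 was at 0.528, 0.112, 0.241 and 0.557 FPKM in vehicle tumors and at 0.594, 2.08, 1.78, 1.38 and 1.14 FPKM at 200 mg/kg (0.79, adjusted p = 0.318). Its groups did not overlap, which with ZDHHC2 and ABHD17C made 3 of 29 enzymes without overlap at this dose (7.45% of all genes tested). Untreated tumors of the same study had ZDHHC11 at 0.133, 1.36, 0.592, 2.22 and 0 FPKM, spanning both groups.

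Groups without overlap were counted for the other doses as well. At 30 mg/kg and 24 h there were 3 of 29 (6.74% of all genes), ABHD17C, ZDHHC11 and ZDHHC24, and at 100 mg/kg 1 of 29 (7.16%), ABHD17C. ZDHHC24 was at 6.77, 5.64, 6.79 and 6.84 FPKM at 30 mg/kg (log2 fold change 0.88, limma adjusted p = 0.336), above the vehicle tumors and within the range of the untreated tumors, 3.59 to 7.07 FPKM. At 1 h, 0, 0 and 1 of 29 did not overlap at 30, 100 and 200 mg/kg, beside 0.690%, 0.828% and 1.37% of all genes. The 1 was ZDHHC16, at 22.4 to 23.9 FPKM with 200 mg/kg and 17.6 to 22.4 FPKM in vehicle tumors (0.18, adjusted p = 1). At 3-6 h there were 0 of 29, beside 0.00% at each dose.

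Vehicle was compared with untreated tumors in each study. Limma called 0 of the 29 enzymes at 1 h, 3-6 h or 24 h, beside 0.00% of all genes in each, and 1, 0 and 3 had an unadjusted p below 0.05, beside 4.73%, 4.83% and 4.20%. At 24 h these were PPT1 (log2 fold change 0.39), ZDHHC12 (0.27) and ZDHHC24 (-0.63), each with an adjusted p of 1. Vehicle and untreated tumors did not overlap at 24 h for 2 of 29 enzymes, PPT1 and LYPLA1 (-0.26, adjusted p = 1), beside 1.28% of all genes, and for 0 of 29 at 1 h and 3-6 h, beside 0.851% and 0.0844%. For the differences of the 200 mg/kg effect between the studies limma called 0 of the 29 as well, beside 0.583%, 1.72% and 0.00% of all genes for 24 h minus 1 h, 24 h minus 3-6 h and 3-6 h minus 1 h, with 3, 5 and 1 at an unadjusted p below 0.05, beside 13.2%, 16.3% and 4.63%. The trends with dose at 1 h and 3-6 h gave 0 calls, beside 0.00% and 0.215% of all genes, with 2 and 3 at an unadjusted p below 0.05, beside 3.41% and 7.83%. At 24 h that count was 4, beside 20.0%.

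The genes around the cycle were taken from lists by function. The 2 tested accessory proteins of the DHHC enzymes were GOLGA7 (partner of ZDHHC9, median 18.9 FPKM) and SELENOK (partner of ZDHHC6, median 11.1 FPKM). Limma called 0 of them in a dose comparison, beside 0.00% to 7.41% of all genes. At 200 mg/kg and 24 h their log2 fold changes were 0.59 (unadjusted p = 0.0142, adjusted p = 0.110) and -0.20 (adjusted p = 0.699).

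Of 9 tested genes that make or handle palmitoyl-CoA, 1 rose and 1 fell at 200 mg/kg and 24 h, and the same 2 passed at 100 mg/kg, beside 7.41% and 1.12% of all genes. FASN, which makes palmitate, had a log2 fold change of -0.85 (adjusted p = 8.56e-07) and one of -0.45 at 100 mg/kg (adjusted p = 0.0481, lost under 5 of 7 alternatives and without any one of vehicle replicates 1, 2 and 3 and 100 mg/kg replicates 2, 3 and 4). CPT1A, which carries acyl groups into mitochondria for oxidation, had one of 0.61 (adjusted p = 0.000375) and of 0.57 at 100 mg/kg (adjusted p = 0.00666, lost with only the groups compared and without 100 mg/kg replicate 3, adjusted p = 0.0507). The list median at 200 mg/kg was -0.04, as against 0.04 over all genes.

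Of 12 tested enzymes of the other protein lipid modifications, 1 fell at 100 and at 200 mg/kg at 24 h, beside 1.12% and 7.41% of all genes, and the share at 200 mg/kg was near the background. It was RABGGTB, a subunit of the enzyme that prenylates RAB proteins, with log2 fold changes of -0.45 (adjusted p = 0.0280) and -0.42 (adjusted p = 0.00929). Both calls were lost with only the groups compared (adjusted p = 0.164 and 0.0944), and the first without any one of vehicle replicates 2, 3 and 4 and 100 mg/kg replicates 1, 2 and 3. NMT2, a myristoyltransferase, was close to the threshold for the trend at 24 h (-0.27 per 100 mg/kg, adjusted p = 0.0436, lost without a filter on low values and without any one of 13 of 17 tumors, with adjusted p up to 0.109) and did not pass at 200 mg/kg (-0.50, adjusted p = 0.0908). Of 9 tested other ABHD and carboxylesterase hydrolases, 0 were called by limma in any dose comparison, beside 0.00% to 7.41% of all genes. Their median log2 fold change at 200 mg/kg and 24 h was 0.13.

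For reference, the TEAD factors and a pair of their best known targets were measured in the same fit. CCN2 fell by 1.44 and CCN1 by 1.26 on the log2 scale at 200 mg/kg and 24 h (adjusted p = 2.11e-06 and 1.23e-05). At 3-6 h with 200 mg/kg the values were -0.63 (adjusted p = 0.0338) and -0.72 (adjusted p = 0.00223). These 3-6 h calls were lost with only the groups compared (adjusted p = 0.0643 for both) and with vehicle cage group 2 alone (0.166 for both), and that of CCN2 also with vehicle cage group 3 alone (0.102) and without any one of 12 of 20 tumors (0.0105 to 0.125). TEAD1, the most abundant TEAD transcript (median 126 FPKM), had a log2 fold change of 0.06 at 24 h (adjusted p = 0.798), and TEAD4 one of -0.74 (adjusted p = 3.61e-05). With all 94 libraries the calls named here for FASN, CPT1A, RABGGTB, NMT2, CCN1, CCN2 and TEAD4 were lost, with adjusted p from 0.147 to 1. At 200 mg/kg and 24 h, those of FASN, CPT1A, CCN1, CCN2 and TEAD4 were kept under the other 6 alternatives and without any one tumor. Of the 6 genes of the TEAD list, 3 were called there, beside 7.41% of all genes, and the highest log2 fold change was 0.54, in a gene not called. At 100 mg/kg, CCN2 and CCN1 were called at 3-6 h (lowest -0.78) and 0 of the 6 at 24 h, beside 0.430% and 1.12% of all genes. These 100 mg/kg calls were lost under 4 (CCN2) and 2 (CCN1) of 9 alternatives.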

How the data were processed

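RNA-seq libraries of 94 NCI-H226 xenograft tumors had been made by the authors by KAPA RNA HyperPrep with a HyperCap capture step and read from both ends (NextSeq 500). The deposited values are FPKM, 1 column per library. STAR and GRCh38 are named in the submitters' processing notes. The quantifier, the annotation and the treatment of mouse reads are not given in the sources used here, and FPKM hold no counts, so no interval for counting error is given.

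The table had 20555 entries. The entry with the highest mean was kept per gene ID (20239, with 316 further entries left out), and 32 blank cells, 0 of them in the 33 enzymes, were read as 0. Starts in the table count from 0 and were raised by 1. Then 21 of the 33 enzymes had the locus of GENCODE 29.

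log2(FPKM + 1) values of 91 libraries were fitted with limma 3.58.1 in R 4.3.3 (eBayes, robust, with a mean-variance trend). Every group had its own coefficient. A gene was tested if 4 or more libraries reached an FPKM of 1, which left 13036. The 3 libraries with fewer than 10000 genes at an FPKM of 1 were left out. Cage groups of a dose were averaged. P-values are two-sided and adjusted by Benjamini-Hochberg per comparison, threshold 0.05, and intervals are 95%. The fit was tested on simulated data. P-values measure the spread between these tumors. Figures were drawn with matplotlib 3.10.9.

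Enzymes described tumor by tumor were those past the threshold, the 3 highest and 3 lowest log2 fold changes at 200 mg/kg and 24 h, and LYPLA1, LYPLA2, ABHD17A, ABHD17B, ABHD17C and PPT1. Levels of ZDHHC7 per tumor, the comparison of controls between studies and the alternatives for genes of the lists, MSLN and CALB2 were added after values had been seen. The enzymes and lists were chosen with earlier results of these data known. Promoter sequences are from RefSeq (GRCh38.p14), and 25 of the 33 enzymes matched.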

Additional observations from a re-analysis of the deposited data

Results flagged for a closer look

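Within groups of 4 or 5 tumors, 1 tumor stood apart from the rest by Dixon's test in 7 of the 83 groups examined (11 enzymes). For normally distributed values chance alone flags about 1 in 20 groups, and the test was run on FPKM without a log. ABHD17C was at 12.8 FPKM in replicate 2 of the 30 mg/kg group at 3-6 h (cage group 8), where the others were at 5.77 to 7.78. ABHD17C was at 23.4 FPKM in replicate 1 of the untreated tumors at 24 h, with the others at 10.0 to 13.5. ZDHHC24 was at 4.63 FPKM in replicate 3 of vehicle at 24 h (others 2.59 to 2.75) and at 5.64 FPKM in replicate 3 of 30 mg/kg at 24 h (others 6.77 to 6.84). ABHD17B was at 7.14 FPKM in replicate 2 of 30 mg/kg at 24 h (others 3.31 to 3.70). PPT1 was at 8.82 FPKM in replicate 2 of the untreated tumors at 24 h (others 15.4 to 17.8) and at 14.6 FPKM in replicate 4 of 200 mg/kg at 24 h (others 19.7 to 21.8).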

How the results depend on the processing

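The number of expressed enzymes was 26 to 29 under the alternatives. At 200 mg/kg and 24 h the count of 2 enzymes called was 0 with all 94 libraries, 0 with untreated tumors in place of vehicle (8.31% of all genes), 1 without a filter on low values (5.00% of all genes; ZDHHC2, adjusted p = 0.0441, and ABHD17C, 0.0567) and 1 with only the groups compared in the fit (2.11% of all genes; ZDHHC2, 0.0330, and ABHD17C, 0.0922). It was 2 with quantile normalization, a pseudocount of 0.1 and array weights over 94 libraries, beside 7.05%, 7.39% and 15.1% of all genes, and 0 to 2 without 1 tumor, beside 2.98% to 11.8%. With all 94 libraries limma called 0 of all genes in that contrast, and 1 of the 29 enzymes had an unadjusted p below 0.05. At 30 mg/kg and 24 h the count was 5 with all 94 libraries (ABHD17C, ZDHHC5, ZDHHC12, ZDHHC17 and ZDHHC20, lower, in a fit with the library that lists all 33 enzymes at 0), beside 22.7% of all genes, and 0 under the other alternatives. At 100 mg/kg and 24 h it was 0 to 1 without 1 tumor, and ZDHHC2 was the one called, without 100 mg/kg replicate 2 (0.468% of all genes). The trend with dose at 24 h gave 0 calls with all 94 libraries (0.0230% of all genes) and 0 with only the groups compared (2.34%; ZDHHC2, adjusted p = 0.0646). No other dose, vehicle, interaction or trend comparison gained or lost a call under these alternatives. Across them the log2 fold change at 200 mg/kg and 24 h was -0.68 to -0.45 for ZDHHC2 (adjusted p 0.00924 to 1) and -0.80 to -0.62 for ABHD17C (0.0346 to 1). No direction reversed. At 24 h the vehicle, untreated and 200 mg/kg groups held none of the libraries of few genes. With all 94 libraries the group means of the 200 mg/kg contrast are therefore unchanged. The shared estimate of the spread differs, and the genes tested may differ. Other causes were not tested. No paired analysis was possible because the replicate numbers were given in accession order and pair no tumors.

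The comparison of controls of the 24 h study with either other study called 0 of 29 enzymes with all 94 libraries. Against 3-6 h, the ABHD10 call was lost with untreated (adjusted p = 0.0598) or vehicle tumors alone (0.362), and the PPT1 call under 6 of 8 alternatives. For 24 h against 1 h the ABHD17C call was also lost with untreated tumors alone (log2 difference 0.77, adjusted p = 0.195), vehicle tumors alone (0.71, adjusted p = 0.550) and only the groups compared (adjusted p = 0.0737). Depth per library is unknown, which limits what can be said of enzymes listed at 0.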
